A study of Mus musculus with 4 samples.

Results

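Tanycyte-like cells of the posterior hindbrain were the 202 nuclei, of 39461 kept in the series, that passed the quality filter of the authors and carry the annotation "Tanycyte-like" in their table of nuclei. They form 2 clusters, cluster 61 with 142 nuclei and cluster 141 with 60 nuclei. Nuclei were sorted and profiled with the 10x Genomics 3′ kit in 4 libraries, 2 of control mice and 2 of AgRP-Gq;POMC-Gi mice. The AgRP-Gq;POMC-Gi mice carry AgRP-IRES-Cre+/-, hM3DGqfl/-, POMC-Dre+/- and hM4DGifl/-, so that Cre switches on the activating receptor hM3DGq in AgRP neurons and Dre the inhibiting receptor hM4DGi in POMC neurons. The study is about those of the hypothalamus, which is not the tissue profiled here. The controls are labelled WT, while the study's methods describe controls that lack Cre and Dre but still carry both unrecombined receptor alleles. All mice were adults of both sexes aged 12 to 20 weeks on a C57BL/6 background, received clozapine *N*-oxide (CNO, the ligand of both receptors) at 3 mg per kg and were left without food for 1 h before the tissue was taken. The study's methods give 2 mice per group and state that samples of a condition were pooled. Which mouse went into which library is not stated, so the spread between the 2 libraries of a group may not measure that between mice.

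Tanycytes are elongated glial cells whose bodies line a ventricle and whose basal process reaches into the brain. They are best known from the third ventricle beside the arcuate nucleus, and like cells line the ventricle above the area postrema, a hindbrain region without a tight blood-brain barrier. They share intermediate filament genes such as *Gfap* and *Vim* with astrocytes and with the radial glia of the embryo, and they lack the many motile cilia of ependymal cells. Astrocytes (4378 nuclei) and ependymal cells (314 nuclei) are the annotated types set beside them here.

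The 4 libraries held 26 and 26 tanycyte-like nuclei in control replicates 1 and 2, and 67 and 83 in AgRP-Gq;POMC-Gi replicates 1 and 2. Their counts summed to 97617, 80057, 205895 and 326155 unique molecular identifiers (UMIs, counted molecules), and the median nucleus had 3198 UMIs, against 3375.5 in astrocytes and 2720.5 in ependymal cells. No barcode of a tanycyte-like nucleus was shared between libraries, whereas 168 barcodes of all kept nuclei were. Levels are counts per 1e6 UMIs (CPM) of the summed nuclei of a library, and a value with ± is the mean over the 4 libraries with its SD. For a log2 difference, ± gives the standard error (SE) of the estimate instead. Control replicate 2 and AgRP-Gq;POMC-Gi replicate 2 had 436 and 329 choroid plexus nuclei, the other libraries 2 and 6. *Ttr*, the choroid plexus transcript, was present in tanycyte-like nuclei at 871, 3485, 102 and 1493 CPM, and in oligodendrocytes, which do not make it, at 5.97, 3333, 24.3 and 2085 CPM. The 85 *Ttr* UMIs of tanycyte-like nuclei in control replicate 1 all came from 1 nucleus. In the 2 libraries with many choroid plexus nuclei *Ttr* thus stood near the same level in both types, and it is not read as expression.

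The share of tanycyte-like nuclei differed between the groups more than between the libraries of a group. They made up 0.267% of the kept nuclei in control replicate 1 (95% interval 0.175 to 0.391) and 0.259% in control replicate 2 (0.169 to 0.379). In AgRP-Gq;POMC-Gi replicates 1 and 2 they made up 0.689% (0.534 to 0.874) and 0.833% (0.664 to 1.03). The intervals are exact Clopper-Pearson intervals and cover counting error only. The mean share was 2.89-fold higher in AgRP-Gq;POMC-Gi, and 3.40-fold higher among nuclei other than neurons. The exact two-sided permutation test over libraries gave p = 0.333 for both, the smallest value that 2 against 2 libraries allow, so the design could not reach the threshold of 0.05.

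The share of cluster 61 did not overlap between the groups, at 0.103% and 0.199% of kept nuclei in control and 0.555% and 0.582% in AgRP-Gq;POMC-Gi libraries, a ratio of 3.77 (p = 0.333, exact permutation test). Cluster 141 made up 0.165%, 0.0597%, 0.134% and 0.251%, and these values did overlap (ratio 1.72, p = 0.667, exact permutation test). A higher share without overlap was found in 59 of the 184 clusters of the series, 32.1%, and in 5 of the 50 clusters that are not neurons, among which cluster 61 had the highest ratio. Other types differed as well, in both directions. Neurons made up 25.4% and 27.2% of control nuclei and 38.0% and 36.5% of AgRP-Gq;POMC-Gi nuclei. Neurons of cluster 97, in which *Gfral*, the receptor for GDF15 of area postrema neurons, reached 316 ± 98.7 CPM against 4.20 ± 1.23 CPM in all neurons, numbered 7, 17, 40 and 37 in the order of libraries above, a 3.25-fold higher share. Ependymal cells had a higher share without overlap (0.709% ± 0.102 in control and 0.884% ± 0.0583 in AgRP-Gq;POMC-Gi, n = 2 libraries each). Oligodendrocytes (47.0% ± 5.97 and 38.3% ± 2.53), mural cells (2.73% ± 0.335 and 1.35% ± 0.408), endothelial cells (2.34% ± 0.146 and 1.65% ± 0.683) and *Tmem119* immune cells (2.55% ± 0.0550 and 2.36% ± 0.0672) had a lower one without overlap. Astrocytes made up 10.7% to 11.5% of every library. The part of these shares in the number of tanycyte-like nuclei was not tested.

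**Figure D1:**
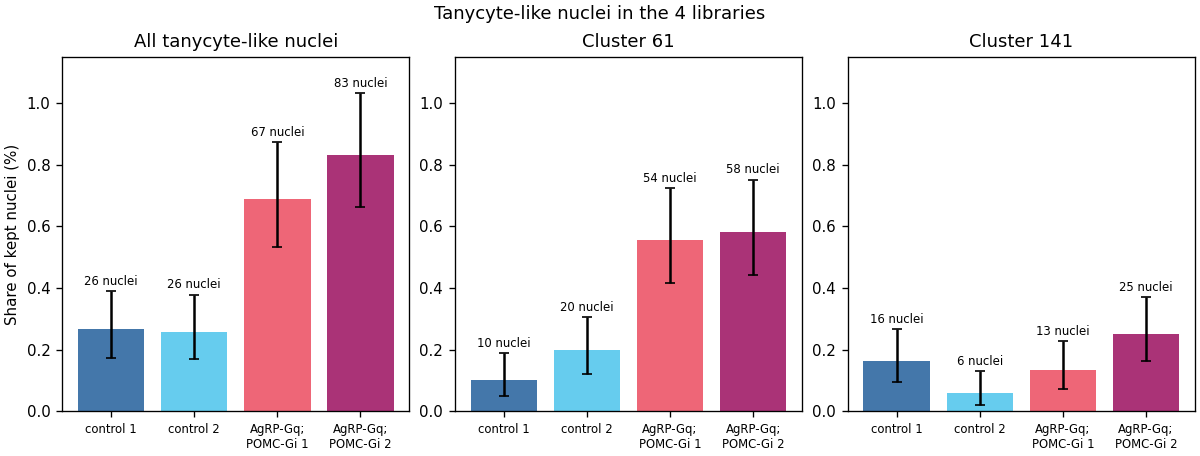
Share of kept nuclei (%, y axis) that were tanycyte-like, in cluster 61 or in cluster 141, for each of the 4 libraries. Bars give the share with its exact 95% interval (counting error only) and the number of nuclei. Both AgRP-Gq;POMC-Gi bars exceed both control bars for all tanycyte-like nuclei (0.689% and 0.833% against 0.267% and 0.259%) and for cluster 61, but not for cluster 141.

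The genes that mark the label were examined first. The annotation was made from the same counts, so their levels describe it and are no independent check. *Gfap*, an intermediate filament protein of astrocytes and radial glia (chromosome 11, 102887336 to 102900912, GRCm38), stood at 328, 225, 330 and 445 CPM, and 76 of 202 nuclei (37.6%) had a UMI. Astrocytes followed at 99.7 ± 18.8 CPM and ependymal cells at 48.8 ± 51.4 CPM, and every tanycyte-like library was above every library of both, so *Gfap* was highest here of all 14 types. *Vim*, the filament protein vimentin, stood at 256, 187, 121 and 227 CPM, with a UMI in 38.6% of nuclei. With 198 ± 58.3 CPM it lay beside endothelial cells at 218 ± 41.4 CPM and ependymal cells at 198 ± 35.5 CPM, from which it did not differ beyond the spread, and above astrocytes at 8.21 ± 2.49 CPM. *Nes*, the filament protein nestin of neural stem cells, had 124 ± 45.2 CPM, against 86.9 ± 45.8 CPM in endothelial cells, 13.5 ± 13.4 CPM in ependymal cells and 0.618 ± 0.171 CPM in astrocytes. In oligodendrocytes, which should lack these genes, 1.18% of nuclei had a *Gfap* UMI, 1.27% a *Vim* UMI and 0.113% a *Nes* UMI at a median depth of 2460 UMIs. After each nucleus was thinned to 800 UMIs, 19.3% of tanycyte-like nuclei kept a *Gfap* UMI and 14.4% a *Vim* UMI.

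Several genes that define tanycytes of the hypothalamus had few or no UMIs, and others of the same list were not. *Rax*, the homeobox factor of those cells, had a UMI in 4 of 202 nuclei (4.86 ± 5.63 CPM) and *Lhx2*, another homeobox factor, in 0 of 202, which allows a share of nuclei with a UMI of up to 1.49% and does not limit how many nuclei express it. *Crym*, a thyroid hormone binding protein, and *Dio2*, which activates thyroid hormone, each had UMIs in 1 nucleus. *Dio2* stood at 99.0 ± 22.3 CPM in astrocytes. Of 22 such genes, 5 were detected in at least 5% of tanycyte-like nuclei, as were 8739 of all 32285 genes, a like share, among them *Cd59a*, *Tgfb2*, *Vcan* and *Mia*. Of these 5, 3 were above astrocytes in every library and 0 below, and over the 8739 genes detected this often 18.7% were above and 9.81% below. The filter leaves out members that are low here, *Dio2* among them, so the 0 below says nothing of the other members. The same holds for the counts of detected list members that follow. The 22 genes summed to 487 ± 27.7 CPM, against 392 ± 32.7 CPM in astrocytes and 477 ± 85.0 CPM in ependymal cells. Of 14 intermediate filament genes 8 were detected, of which 3 were above astrocytes and 2 above ependymal cells in every library, and 0 were below either. *Gfap* and *Vim*, which mark the label, and *Nes* are filament genes already given above as higher than in astrocytes. The count is therefore no separate result. Over all genes detected this often 11% were above ependymal cells and 8.73% below.

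Secreted proteins, receptors, transcription factors and noncoding RNAs were among the genes that led tanycyte-like nuclei, and their mean in the highest other type ran from 4.15 to 275 CPM. The 15 named here had the largest ratio to the highest of the 13 other types, which is how they were chosen, so the contrast is a description and no test; ratios ran from 4.57 to 52.9, and in 14 of 15, all but *Fos*, every library was above every library of the next type. *Wif1*, a secreted inhibitor of Wnt proteins (chromosome 10, 121033960 to 121100650), stood at 297, 500, 918 and 653 CPM. It had a UMI in 62.9% of nuclei, against 1.27% of ependymal nuclei, 0.320% of astrocytes and 0.291% of oligodendrocytes. *Prokr2*, a receptor of the prokineticin peptides, stood at 225, 112, 180 and 331 CPM, and no other type had a mean above 10.5 CPM. *Nppc*, which encodes C-type natriuretic peptide, stood at 348, 62.5, 189 and 187 CPM, while *Npr2*, the receptor of that peptide, had 36.6 ± 16.8 CPM here, 41.6 ± 10.1 CPM in ependymal cells and 32.5 ± 4.56 CPM in astrocytes, within the spread.

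*Alk*, a receptor tyrosine kinase, had 1181 ± 246 CPM against 217 ± 19.6 CPM in oligodendrocyte precursors, the next type. *Igfbp5*, a binding protein of insulin-like growth factors, had 1259 ± 357 CPM and a UMI in 81.7% of nuclei, against 275 ± 257 CPM in fibroblasts. *Hopx*, a homeodomain protein of radial glia, had 574 ± 410 CPM against 120 ± 99.4 CPM in ependymal cells. *Fbxo2*, part of a ubiquitin ligase, had 188 ± 66.8 CPM against 33.8 ± 21.8 CPM in ependymal cells. Noncoding transcripts were among the first. *AC160336.1*, a long intergenic RNA (chromosome 14, 44544055 to 44637201), stood at 901, 712, 889 and 702 CPM with a mean of at most 14.2 CPM in any other type, although it overlaps *Gm5624* on the same strand. *3100003L05Rik* (chromosome 7, 124625670 to 124708935) had 427 ± 120 CPM against 16.2 ± 11.4 CPM in ependymal cells. *Rsad1* and *Acsf2* had 327 ± 102 CPM and 248 ± 37.3 CPM; both lie on the minus strand of chromosome 11, 7846 bases apart, so reads that run past one may count for its neighbour.

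*Wt1*, a zinc finger transcription factor known from the developing kidney and gonad (chromosome 2, 105126529 to 105173616, plus strand), stood at 256, 287, 787 and 383 CPM. It had a UMI in 108 of 202 nuclei (53.5%), in 6 of 314 ependymal nuclei, in 1 of 4378 astrocytes and in 0.0476% of oligodendrocytes. *Wt1os*, an antisense RNA on the minus strand (105076538 to 105126510), stood at 82.0, 162, 374 and 196 CPM and had no UMI in 4378 astrocytes, so that over all libraries it was at least 1210-fold higher than the level of 3 counts there. Both genes were highest in AgRP-Gq;POMC-Gi replicate 1. A UMI of either was present in 111 of 142 nuclei of cluster 61 but in 11 of 60 nuclei of cluster 141. The annotated starts of both genes lie 19 bases apart, and the stretch is shown because both leading transcripts begin at it. The sequence is that of RefSeq for GRCm38.p6, chr2:105126461-105126528 on the minus strand, and capitals mark the 18 bases between the starts, after which *Wt1os* begins.
Wt1os: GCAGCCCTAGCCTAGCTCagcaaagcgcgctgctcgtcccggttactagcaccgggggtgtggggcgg
Whether the counting used strand is not given in the sources used here. The gene bodies do not overlap.

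**Figure D2:**
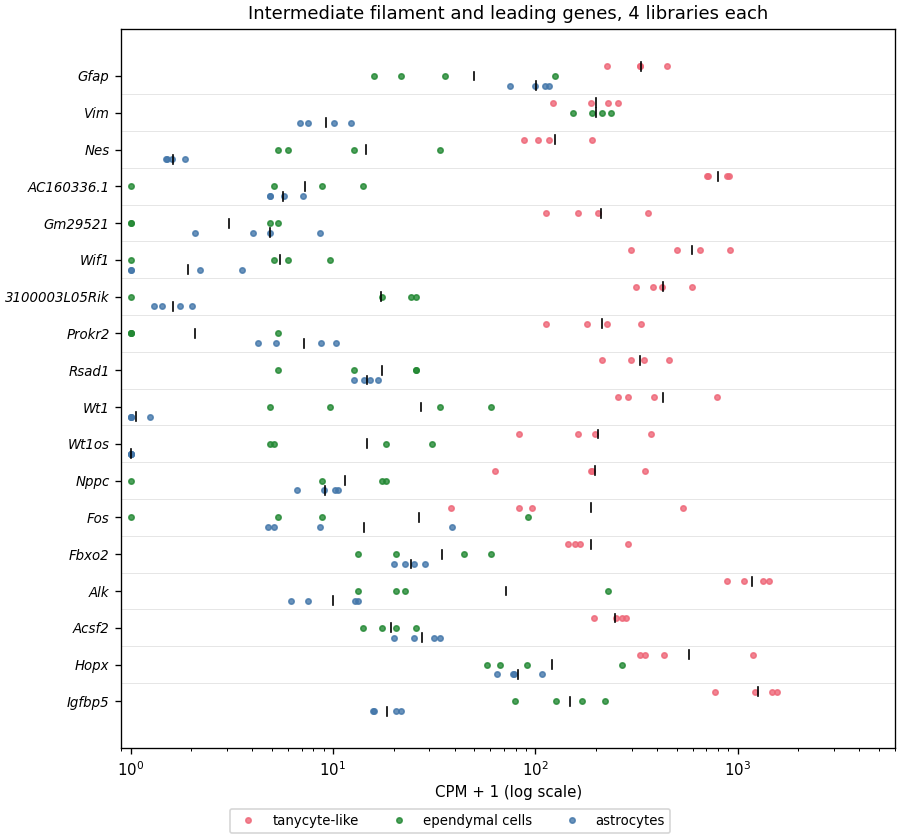
CPM + 1 (log scale, x axis) of *Gfap*, *Vim*, *Nes* and the 15 genes that led tanycyte-like nuclei, 1 row per gene. Each point is 1 library and each black line the mean of 4, for tanycyte-like nuclei, ependymal cells and astrocytes. Tanycyte-like points lie to the right for every gene but *Vim*, where they mix with those of ependymal cells, and *Fos*, where 1 library stands at 539 CPM and the ranges overlap.

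Against astrocytes and ependymal cells alone, the first 10 genes added *Fn1*, *Carmn*, *Gm6209*, *Aldh1a2* and *Mest* to those above. All of these but *Mest* had a higher mean in another type. *Mest* stood at 61.5, 12.5, 631 and 166 CPM, so that both control libraries were below the 95.3 CPM of choroid plexus cells. *Fn1*, which encodes fibronectin, stood at 164, 249.8, 1282 and 269.8 CPM, with 1 library far above the others. Its mean was 491 ± 529 CPM here against 3.68 CPM in astrocytes and 8.47 CPM in ependymal cells, and 1399 CPM in the nuclei annotated as oligodendrocytes/OPC. *Aldh1a2*, which makes retinoic acid, had 113 CPM against 181 CPM in fibroblasts, and *Carmn*, a long noncoding RNA of smooth muscle, had 382 CPM against 664 CPM in mural cells. Defining markers of fibroblasts summed to 42.9 to 102 CPM in tanycyte-like nuclei, where 1 of 4 reached 5% of nuclei. Those of mural cells (2 of 4 detected) summed to 39.9 to 62.5 CPM and those of endothelial cells (0 of 4) to 0 to 12.5 CPM. The part of these cells in the levels was not tested.

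Above astrocytes in both tanycyte-like and ependymal nuclei were *Nr4a3*, *Rbpms*, *Cdon*, *Filip1*, *Wt1*, *Vim*, *Dach2*, *Adgrv1*, *Spag16* and *Adamtsl1*, by the rule of the largest ratio of the lower of both types to astrocytes. The rule does not ask for like levels in both, and *Wt1* and *Spag16* were far apart in them. *Nr4a3*, an immediate early gene, was carried by AgRP-Gq;POMC-Gi replicate 1, at 763 CPM here and 692 CPM in ependymal cells, against 76.7 to 162 CPM and 39.8 to 95.6 CPM in the other libraries. *Cdon*, a co-receptor of hedgehog proteins, had 205 CPM here, 61.5 CPM in ependymal cells and 1.06 CPM in astrocytes. *Adamtsl1* is among them although 46.9% of oligodendrocytes had a UMI of it. Above ependymal cells in both tanycyte-like nuclei and astrocytes were, by the same rule, *Gm44257*, *Alpk1*, *Gli3*, *Car10*, *Chl1*, *Shisa9*, *Trpm3*, *Brinp2*, *Ddah1* and *Npas2*. *Gli3*, a transcription factor of hedgehog signalling, had 367 CPM here, 360 CPM in astrocytes and 27.3 CPM in ependymal cells, and *Car10*, a carbonic anhydrase-related protein, had 1007, 1591 and 81.1 CPM.

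Motile cilium genes separated tanycyte-like from ependymal nuclei. Of 30 such genes 18 were detected in at least 5% of tanycyte-like nuclei, and in all 18 every library was below every ependymal library, as were 8.73% of all genes detected this often. Their sum was 1514 ± 534 CPM against 21519 ± 619 CPM in ependymal cells, and it was 530 ± 21.8 CPM in astrocytes. In 15 of the 18 every library was above every astrocyte library, against 18.7% of all genes. *Dnah12*, an axonemal dynein, had 40.3 CPM here and 1800.1 CPM in ependymal cells, and *Spag16*, a protein of the central pair of the axoneme, had 182 and 2103 CPM. *Rfx3*, a transcription factor of ciliated cells, had 403 ± 117 CPM here, 348 CPM in astrocytes and 1097 CPM in ependymal cells.

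Astrocyte markers went the other way. All 20 were detected in 5% of nuclei, 14 were below astrocytes in every library (9.81% of all genes were) and 3 above, namely *S100b*, *Mlc1* and *Slc7a11*. In 10 of the 20 the level was above ependymal cells in every library, against 11% of all genes. *Slc1a2*, the glutamate transporter GLT-1, had 432 ± 143 CPM against 3106 ± 225 CPM in astrocytes. *Slc1a3*, the glutamate transporter GLAST that radial glia also use, stood at 615, 862, 1491 and 1521 CPM against 539 ± 86.5 CPM in astrocytes, and the ranges overlapped. *Slc7a11*, the cystine and glutamate exchanger, had 765 ± 397 CPM against 172 ± 31.3 CPM in astrocytes and 36.6 ± 13.3 CPM in ependymal cells.

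Of 26 transcription factors of hindbrain progenitors, 16 were detected in 5% of nuclei. In every library 8 of these were above astrocytes and 3 below (18.7% and 9.81% of all genes), and 11 were above ependymal cells and 1 below (11% and 8.73% of all genes). *Lmx1a*, a factor of the roof plate, stood at 236, 87.4, 175 and 264 CPM, against 23.9 ± 5.74 CPM in ependymal cells and 0.444 ± 0.239 CPM in astrocytes. *Zic1*, *Zic2*, *Zic4* and *Zic5*, zinc finger factors of the dorsal neural tube, and *Msx1*, a homeobox factor of the same region, were above both types in every library, with 310 ± 49.5 CPM for *Zic4* against 96.4 ± 18.1 CPM in ependymal cells. *Pax6* and *Dbx2* were below astrocytes. Of 39 *Hox* genes, which give the position along the body axis, 24 had no UMI and 9 were detected in 5% of nuclei, all of groups 2 to 5. *Hoxd3* stood at 51.2, 50.0, 43.7 and 55.2 CPM, against 21.2 ± 6.26 CPM in astrocytes and 25.2 ± 8.69 CPM in ependymal cells. None of 14 factors of the forebrain and midbrain was detected in 5% of nuclei, and 11 had no UMI.

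Among radial glia and neural stem cell genes, 17 of 22 were detected in 5% of nuclei, of which 7 were above and 3 below astrocytes in every library (18.7% and 9.81% of all genes), and 7 above and 2 below ependymal cells (11% and 8.73%). *Fabp7*, the brain lipid-binding protein of radial glia, had 130.0 ± 69.4 CPM against 43.0 CPM in astrocytes. *Sox2* and *Sox9*, stem cell factors kept by glia, had 69.3 ± 17.3 and 126 ± 27.8 CPM, against 54.6 ± 14.6 and 104 ± 24.3 CPM in astrocytes, and both ranges overlapped. Of 25 detected secreted factors, 12 were above and 4 below astrocytes in every library, and 9 were above and 3 below ependymal cells, against the same shares of all genes. *Wnt5b*, a Wnt protein, had 271 ± 72.6 CPM against 90.8 ± 10.7 CPM in ependymal cells and 24.4 ± 5.96 CPM in astrocytes. *Dkk3*, of the Dickkopf family of Wnt modulators, had 449 ± 179 CPM against 8.91 ± 2.42 CPM in astrocytes. *Nrg2*, a neuregulin, had 470 ± 127 CPM against 116 ± 16.2 CPM in astrocytes. *Tgfb2*, a transforming growth factor, had 206 ± 99.4 CPM against a mean of 45.0 CPM in astrocytes.

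Of 43 hormone and peptide receptor genes, 21 were detected in 5% of nuclei, with 4 above and 9 below astrocytes in every library. Over all genes 18.7% were above and 9.81% below, the shares against which the counts that follow are read too, so the 4 above lie near the background. *Thrb*, a thyroid hormone receptor, and *Ghr*, the growth hormone receptor, were below astrocytes. In the Notch pathway, 4 of 14 detected genes were above and 1 below astrocytes, a share near that of all genes. Of 14 detected tight and adherens junction genes, 3 were above astrocytes and 5 below, and *Afdn*, which encodes the junction protein afadin, had 334 ± 12.0 CPM against 119 and 83.6 CPM in astrocytes and ependymal cells. Transport and nutrient sensing genes had 7 above and 4 below astrocytes of 16 detected, among them *Slc38a1*, an amino acid transporter, with 413 ± 144 against 95.8 CPM. Of 9 detected genes of reactive glia, 5 were above and 1 below astrocytes. These include *Gfap* and *Vim*, and *Stat3*, a transcription factor of the cytokine response, with 216 ± 97.9 against 59.4 CPM.

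Clusters 61 and 141 both held *Gfap* and *Vim* and differed in part of the leading set. The clusters were made from the same counts, so what follows describes them and tests nothing. *Gfap* stood at 209, 184, 215 and 435 CPM in cluster 61 and at 404, 346, 765 and 472 CPM in cluster 141. It was higher in cluster 141 within each library, although the ranges over libraries overlapped. *Vim* had 177 ± 64.9 and 203 ± 98.4 CPM. *Wif1* had 739 ± 307 CPM in cluster 61 and 171 ± 108 CPM in cluster 141, *Wt1* 613 ± 273 and 57.8 ± 57.7 CPM, and *AC160336.1* 1281 ± 581 and 58.2 ± 32.4 CPM. A UMI of *Wif1* or *Wt1* was present in 128 of 142 nuclei of cluster 61 (90.1%) and in 13 of 60 nuclei of cluster 141 (21.7%). In contrast *Alk* (1283 and 950 CPM), *Prokr2* (169 and 272 CPM), *Nppc* (149 and 309 CPM) and *Gm29521* (247 and 169 CPM) had ranges that overlapped between the clusters. Of the 15 leading genes, 8 were higher in cluster 61 in every library and 0 in cluster 141. These genes were chosen over all tanycyte-like nuclei, 142 of 202 of them from cluster 61, so the choice itself favours that cluster.

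The 12 genes that led cluster 61 against cluster 141 were *Filip1*, *Arhgap28*, *Slc22a3*, *Carmn*, *Ccbe1*, *AC160336.1*, *Prrx2*, *Wt1os*, *Gm37459*, *Stk24*, *Arhgap29* and *Kirrel*. *Filip1*, whose product binds filamin, had a UMI in 85 of 142 nuclei of cluster 61, with 366, 518, 940 and 443 CPM, and in 0 of 60 nuclei of cluster 141, which allows a share of nuclei with a UMI, not of nuclei that express it, of up to 5.00%. Over all libraries its level was at least 42.0-fold higher than that of 3 counts in cluster 141. *Slc22a3*, an organic cation transporter, and *Arhgap28* were also without a UMI in cluster 141, at least 6.19-fold and 8.81-fold higher in cluster 61. *Ccbe1* encodes a matrix protein of lymphatic growth and *Kirrel* an adhesion protein. *Gm37459* lies inside *Pex5l* on the other strand, and 88.7% of oligodendrocytes had a UMI of it. In all 12 every library of cluster 61 was above every library of cluster 141, as in 2.99% of the genes detected, but this is what the rule selects.

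The 12 genes that led cluster 141 were *Ccdc3*, *Dnah12*, *Dbx2*, *Kcnj16*, *D430041D05Rik*, *Tekt1*, *Dnah2*, *Col23a1*, *Stk32a*, *Trim9*, *A330093E20Rik* and *Adamts3*. Among the 13 other types the highest mean was that of ependymal cells for 5 of them, of astrocytes for 3 and of other types for 4. *Dnah2*, an axonemal dynein, stood at 135, 444, 185 and 260 CPM in cluster 141 and at 0, 0, 30.7 and 37.3 CPM in cluster 61, against 513 CPM in ependymal cells. *Tekt1*, a tektin of the ciliary axoneme, had 82.4 ± 15.6 against 4.64 ± 5.94 CPM. Of 18 detected cilium genes, 6 were higher in cluster 141 in every library and 0 in cluster 61, against 2.96% of all genes in that direction, and their sum was 2561 ± 454 CPM in cluster 141 and 1068 ± 498 CPM in cluster 61. *Dbx2*, a homeobox factor, had 135 ± 59.2 CPM in cluster 141, near the 176 CPM of astrocytes, and 3.61 ± 4.26 CPM in cluster 61. *Kcnj16*, an inwardly rectifying potassium channel of glia, had 102 ± 40.9 and 2.57 ± 3.08 CPM, and *Trim9*, a ubiquitin ligase, 516 ± 59.9 and 40.9 ± 35.8 CPM.

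Astrocyte markers summed to 9079 ± 1914 CPM in cluster 141 and 6012 ± 1157 CPM in cluster 61, against 16227 ± 464 CPM in astrocytes, and 5 of 20 were higher in cluster 141 in every library and 1 in cluster 61 (2.96% and 2.99% of all genes). *Gja1*, the gap junction protein connexin 43, stood at 438, 247, 394 and 331 CPM in cluster 141, near the 362 CPM of astrocytes, and at 52.3, 66.9, 67.6 and 99.4 CPM in cluster 61. *Apoe*, the lipid carrier apolipoprotein E, had 5309 ± 251 CPM in cluster 141, against 1491 ± 494 CPM in cluster 61 and 420.4 ± 86.3 CPM in oligodendrocytes. The difference of *Apoe* between the clusters exceeded that of the summed markers, and the sums alone do not show how many markers differ. *Slc1a2* had 906 ± 620 CPM in cluster 141 and 204 ± 79.0 CPM in cluster 61, with its lowest value of cluster 141, 98.7 CPM, in control replicate 2, which held 6 nuclei of it. *Esr1*, the oestrogen receptor, was detected in 46 of 142 nuclei of cluster 61 and in 3 of 60 of cluster 141. No UMI of *Esr1* was found in the 26 nuclei of control replicate 2.

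**Figure D3:**
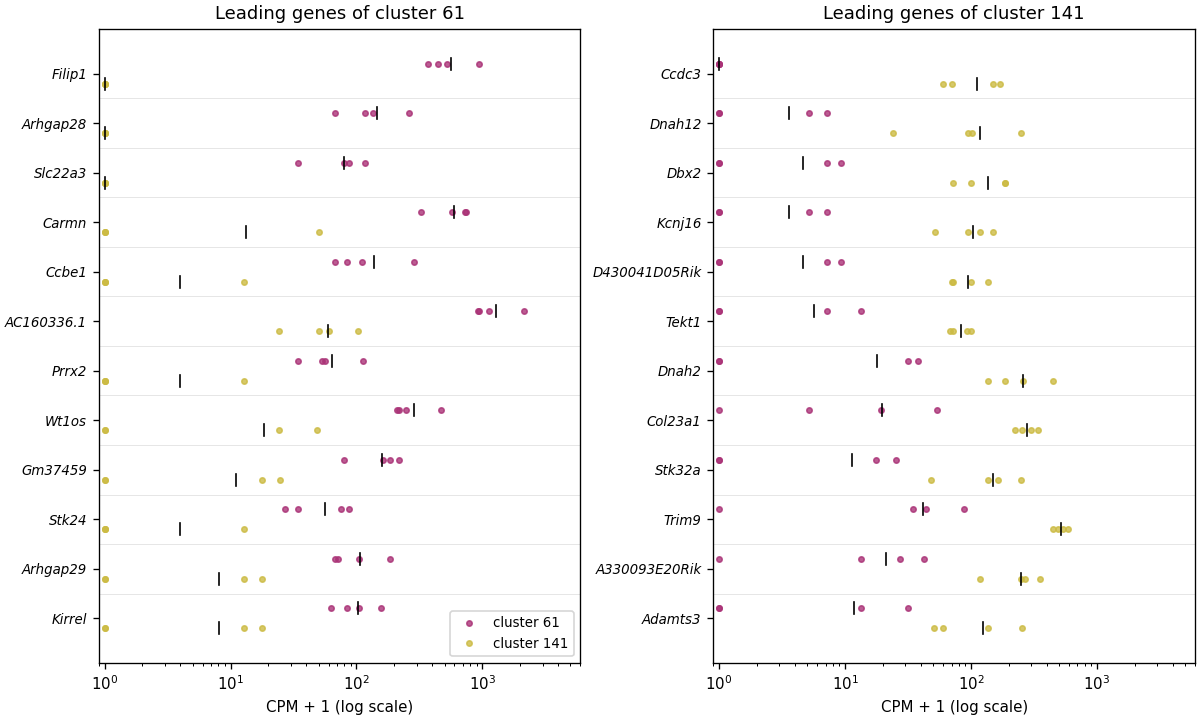
CPM + 1 (log scale, x axis) of the 12 genes that led cluster 61 (left) and the 12 that led cluster 141 (right). Points are the 4 libraries and black lines their means. The clusters do not overlap for any gene, which the choice of genes makes likely, and *Filip1*, *Arhgap28* and *Slc22a3* were without a UMI in cluster 141.

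AgRP-Gq;POMC-Gi and control mice were then compared in the summed tanycyte-like nuclei, which asks whether these glia differ 1 h after CNO. By edgeR's quasi-likelihood test with Benjamini-Hochberg adjustment, 0 of 8739 genes passed an adjusted p of 0.05 (0%), and DESeq2 also called 0. At an unadjusted p under 0.05 edgeR found 533 genes, 304 higher (3.48%) and 229 lower (2.62%) in AgRP-Gq;POMC-Gi. In cluster 61, 0 of 8471 genes passed (0%, 503 at an unadjusted p under 0.05 and 0 by DESeq2). Both counts of 0 depended on the setting. In all tanycyte-like nuclei edgeR called 6 genes without TMM factors and 48 with no filter on detection. It called 0 with a 10% minimum, filterByExpr or a replicate block. In cluster 61 it called 12 without TMM factors, 36 with no filter and 5 with the block. There it called 0 with a 10% minimum or filterByExpr.

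Immediate early genes, which neurons and glia transcribe within minutes of a stimulus, had the highest median log2 difference of the lists, and 1 library stood apart in them. The 10 used by the study summed to 594 and 587 CPM in the control libraries, and to 2438 and 549 CPM in AgRP-Gq;POMC-Gi replicates 1 and 2. None of the 9 tested passed the adjusted threshold, 6 had an unadjusted p under 0.05, all higher (3.48% of all genes were), and their median log2 difference was 1.99 against 0.02 over all genes tested. Without AgRP-Gq;POMC-Gi replicate 1 the sum was 0.929 times that of control. *Fos*, a subunit of the AP-1 transcription factor, had 8, 3, 111 and 31 UMIs, in 4, 3, 38 and 13 nuclei. Control libraries stood at 82.0 and 37.5 CPM. AgRP-Gq;POMC-Gi replicate 1 stood at 539 CPM, while replicate 2, with its 31 UMIs, lay near the controls. Its log2 difference was 2.59 ± 0.69 (SE, edgeR adjusted p = 0.401, 0.000201 to 1.00 over 10 alternatives).

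The same library stood out for several other early genes, but not for all. *Junb*, another AP-1 gene, stood at 41.0, 25.0, 238 and 55.2 CPM, *Btg2*, an antiproliferative gene, at 51.2, 74.9, 534 and 104 CPM, and *Egr1*, a zinc finger factor, at 0, 12.5, 209 and 21.5 CPM. For these genes AgRP-Gq;POMC-Gi replicate 2 was also above both controls, though far below replicate 1. *Atf3*, a stress-induced factor, and *Nr4a1*, an orphan nuclear receptor, had no UMI in the 52 control nuclei. Nuclei of AgRP-Gq;POMC-Gi mice held 42 UMIs of the first and 38 of the second, so that they were at least 4.68-fold and 4.23-fold higher than the level of 3 counts over the control group. Most of these UMIs (34 of 42 and 32 of 38) came from replicate 1, so the bounds are for the summed group and not for each of its libraries. *Jun* did not follow, at 184, 200, 248 and 135 CPM, nor did *Btg1*, at 41.0, 50.0, 38.9 and 30.7 CPM. Of 20 further early genes measured, 10 were tested, 0 passed and 6 had an unadjusted p under 0.05, all higher, against the same 3.48% of all genes.

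Ependymal cells of AgRP-Gq;POMC-Gi replicate 1 stood apart in the same way, and neurons did not. The sum of the 10 genes in that library was 4.23 times the mean of the other libraries in tanycyte-like nuclei, 5.51 times in ependymal cells and 1.82 times in astrocytes. It was 1.10 times in oligodendrocytes and 0.919 times in neurons. By gene, astrocytes stood at 7.29 times for *Fos*, 4.19 for *Junb*, 2.29 for *Jun*, 1.27 for *Btg1* and 0.938 for *Homer1*. In tanycyte-like nuclei the same genes stood at 7.54, 5.89, 1.43, 0.959 and 2.72 times. For *Fos* and *Junb* that library thus stood apart in astrocytes too. In each library the sum was higher in tanycyte-like nuclei than in the 4 types named, with 549 to 594 CPM in the 3 other libraries against 189 to 283 CPM in ependymal cells, 85.7 to 111 CPM in astrocytes and 153 to 194 CPM in neurons. Both clusters showed it, with 2519 CPM in cluster 61 and 2133 CPM in cluster 141 in that library.

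The promoter of *Fos* is shown because this gene is among those that set 1 library apart. The nuclei with a UMI of it were mostly of that library, so that its place among the leading genes is no separate property. The 250 bases before its start are those of RefSeq for GRCm38.p6, chr12:85473640-85473889 on the plus strand, and capitals mark TGACGT, the core of the element bound by the cAMP-responsive factor CREB.
Fos: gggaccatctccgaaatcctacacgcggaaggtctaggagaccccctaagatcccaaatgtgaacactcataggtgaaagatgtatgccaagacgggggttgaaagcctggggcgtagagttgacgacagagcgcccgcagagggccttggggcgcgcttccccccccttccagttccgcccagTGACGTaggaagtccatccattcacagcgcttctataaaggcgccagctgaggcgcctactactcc
These letters, searched on both strands, were present in the 300-base promoter window of 11 of the 23 early genes of both lists with an entry, and in 7.51% of 32851 windows of all genes. A match is a description of the sequence and not a site shown to be bound.

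**Figure D4:**
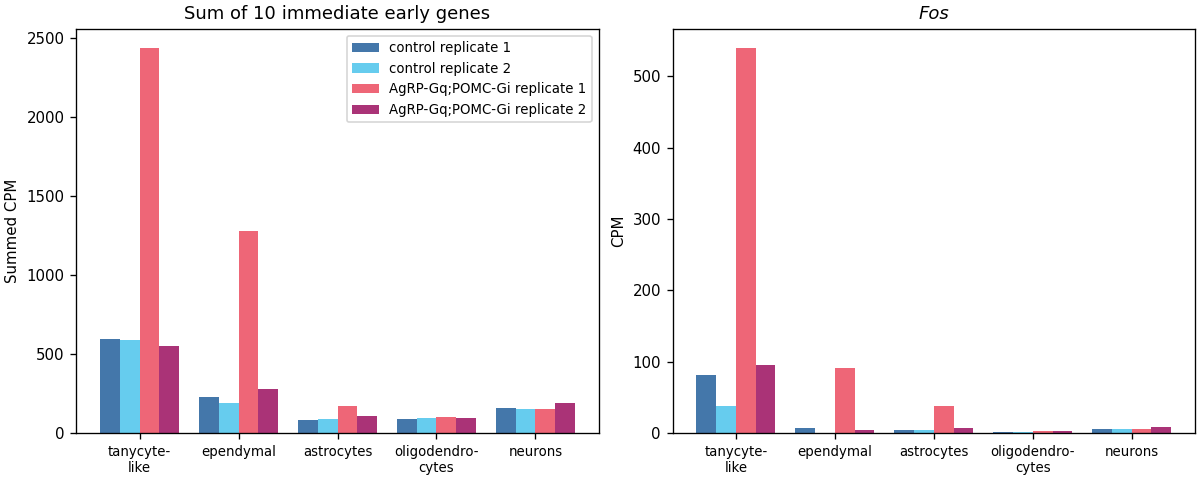
Summed CPM of the study's 10 immediate early genes (left) and CPM of *Fos* (right) in 5 cell types, 1 bar per library. AgRP-Gq;POMC-Gi replicate 1 stands at 2438 CPM in tanycyte-like nuclei and 1281 CPM in ependymal cells, far above the other libraries, while in neurons it lies within their range.

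None of the smallest p-values outside the early genes passed, and several of those with a lower level rested mostly on 1 nucleus. The 5 lowest p-values with a higher level in AgRP-Gq;POMC-Gi were those of *Mest*, *Rbfox1*, *Sat1*, *Hk2* and *3222401L13Rik*, none of which passed (edgeR adjusted p from 0.0690 to 0.362). *Mest*, an imprinted gene, had 6, 1, 130 and 54 UMIs, in 5, 1, 33 and 24 nuclei. The groups did not overlap, and the log2 difference was 3.56 ± 0.69 (edgeR adjusted p = 0.0690, 5.47e-08 to 0.993 over 10 alternatives). *Mest* passed in 5 of the 10, and its log2 difference ran from 2.13 without AgRP-Gq;POMC-Gi replicate 1 to 5.17 without control replicate 1. *Hk2*, a hexokinase, had 0, 7, 72 and 48 UMIs and 2.81 ± 0.71 on the log2 scale (edgeR adjusted p = 0.346). *Sat1*, which breaks down polyamines, had 113, 74.9, 350 and 285 CPM (edgeR adjusted p = 0.244). *Rbfox1* had 7, 18, 100 and 180 UMIs, 55 of the 180 in 1 nucleus.

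The 5 lowest p-values in the other direction were those of *Galntl6*, *Cntn5*, *Cntnap2*, *Hbb-bs* and *Tenm1*, none of which passed either (edgeR adjusted p from 0.0690 to 0.193). *Galntl6*, *Cntn5* and *Cntnap2* did pass in the edgeR fits without TMM factors and with no filter on detection, and none of them did by DESeq2. *Galntl6* had 4, 82, 5 and 8 UMIs, and 62 of the 82 in control replicate 2 came from 1 nucleus. Its log2 difference was -4.20, and -0.59 with control replicate 2 left out. *Hbb-bs*, a haemoglobin gene of red blood cells that has a near-identical copy, had 42 UMIs in that library, 39 of them in 1 nucleus. *Cntn5* had 39, 18, 3 and 23 UMIs, with 33 of the 39 of control replicate 1 in 1 nucleus. *Galntl6*, *Cntn5*, *Cntnap2* and *Tenm1* stood at 1992, 1246, 5740 and 695 CPM in neurons. Levels in neurons are not given for the genes with a higher level, *Rbfox1* among them, so these values show no direction of neuronal genes. Of the 6 neuron markers, 2 had a positive and 4 a negative log2 difference. Whether neuronal genes as a set went in 1 direction was not tested. The 6 neuron markers, all of them detected in 5% of nuclei, summed to 215, 874, 330 and 273 CPM in tanycyte-like nuclei and to 168, 228, 127 and 200 CPM in astrocytes, and the 5 oligodendrocyte markers, likewise all detected, to 461, 1362, 578 and 304 CPM. Both sums were highest in control replicate 2, and their part in these differences was not tested.

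In cluster 141, 5 of 9752 genes passed (0.0513%, 329 at an unadjusted p under 0.05, and 0 by DESeq2). *Gpc5*, a glypican that astrocytes express strongly (9056 ± 656 CPM), was higher in AgRP-Gq;POMC-Gi with 1, 0, 68 and 33 UMIs, a log2 difference of 6.16 ± 1.06 (edgeR adjusted p = 6.57e-05, 4.24e-07 to 0.994 over 10 alternatives). The 68 UMIs came from 4 nuclei and 31 of the 33 from 1 nucleus, and *Gpc5* passed in 5 of the 10 alternatives. *Slc24a2*, *Lingo2*, *Cntn5* and *Dlgap2* were lower, with edgeR adjusted p-values of 0.0278, 0.0278, 0.0390 and 0.0462. *Slc24a2*, at 5493 ± 129 CPM in oligodendrocytes, had 3, 20, 1 and 0 UMIs, 16 of the 20 in 1 nucleus. *Lingo2*, at 3151 ± 147 CPM in neurons, had 41, 6, 1 and 3 UMIs, 39 of the 41 in 1 nucleus. *Dlgap2*, a postsynaptic scaffold gene, had 15, 3, 0 and 0 UMIs, 12 of the 15 in 1 nucleus. Each of these 4 passed in 1 alternative. Leaving out control replicate 1 gave 59 calls, control replicate 2 gave 9, and either AgRP-Gq;POMC-Gi library gave 0.

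No other list had a member that passed. Of the 13 tested genes induced by glucocorticoids, 0 passed and 4 had an unadjusted p under 0.05, all lower (2.62% of all genes were), with a median log2 difference of -0.37. *Zbtb16*, a transcription factor of that group, stood at 256, 62.5, 24.3 and 42.9 CPM (edgeR adjusted p = 0.437). Of 20 tested astrocyte markers 5 had an unadjusted p under 0.05, all higher (3.48% of all genes were), among them *Slc1a3* (edgeR adjusted p = 0.687). Of the 9 tested clock genes in the list of *Dbp* and *Per1*, 9 had a positive log2 difference, with a median of 0.29 and none at an unadjusted p under 0.05. Of the 4 tested in the list of *Arntl*, another clock gene, 2 were positive and 2 negative, with a median of 0.10. Over all genes tested 4496 were positive and 4243 negative. Of 18 cilium genes 15 had a negative difference, with a median of -0.46 and none at an unadjusted p under 0.05. The list summed to 2315, 1262, 1234 and 1245 CPM, so that control replicate 1 stood apart and control replicate 2 lay beside the AgRP-Gq;POMC-Gi libraries. Cluster 141, which holds more of them, made up 42.3% ± 27.2 of the control and 24.8% ± 7.58 of the AgRP-Gq;POMC-Gi nuclei (n = 2 libraries each, p = 0.667, exact permutation test). *Xist*, transcribed from the inactive X chromosome, stood at 1905, 637, 1972 and 30.7 CPM, and the last of these, AgRP-Gq;POMC-Gi replicate 2, was far below the rest. The labels do not give sex per library, and its part in the differences between libraries and groups was not tested.

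In the fit without a replicate block, *Fkbp5* was the 1 gene of 9676 (0.0103%) that passed the test of a different group difference in tanycyte-like nuclei and in astrocytes. It encodes a co-chaperone of the glucocorticoid receptor and is itself induced by glucocorticoids (chromosome 17, 28399094 to 28517527). In astrocytes it had 1269, 710, 82 and 114 UMIs, or 275, 178, 24.5 and 28.9 CPM, and the control libraries lay far above the others. In tanycyte-like nuclei it had 7, 4, 10 and 25 UMIs, or 71.7, 50.0, 48.6 and 76.7 CPM, and the groups overlapped. The log2 difference of AgRP-Gq;POMC-Gi to control was -3.04 ± 0.21 in astrocytes (edgeR adjusted p = 8.65e-05, in a fit added after the data were seen that called 53 of 8462 genes, 0.626%) and 0.21 ± 0.59 in tanycyte-like nuclei (edgeR adjusted p = 0.994). The difference of the differences was 3.34 ± 0.50 (edgeR adjusted p = 0.0274, 1.51e-06 to 0.241 over 10 alternatives). DESeq2 called 0 genes in this comparison. Without AgRP-Gq;POMC-Gi replicate 2 the edgeR adjusted p was 0.125.

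Other types went with astrocytes for *Fkbp5*. Ependymal cells had 31.2, 64.7, 4.12 and 4.35 CPM, and oligodendrocytes 248, 178, 47.9 and 72.8 CPM. Neurons had 43.3, 36.8, 27.4 and 27.0 CPM. Most of the tanycyte-like UMIs came from cluster 61, with 3, 3, 10 and 24 UMIs and 72.4 ± 21.4 CPM, and there the groups overlapped. Cluster 141 had 4, 1, 0 and 1 UMIs of *Fkbp5* among 59354, 20260, 43130 and 84686 UMIs of all genes. On these few UMIs both of its AgRP-Gq;POMC-Gi levels were below both control levels, so the overlap was that of cluster 61. *Tsc22d3* and *Sgk1*, which glucocorticoids also induce, had 92.2, 50.0, 34.0 and 33.7 CPM and 41.0, 50.0, 14.6 and 12.3 CPM in tanycyte-like nuclei, with both AgRP-Gq;POMC-Gi values below both control values and neither called (edgeR adjusted p = 0.905 and 0.846).

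**Figure D5:**
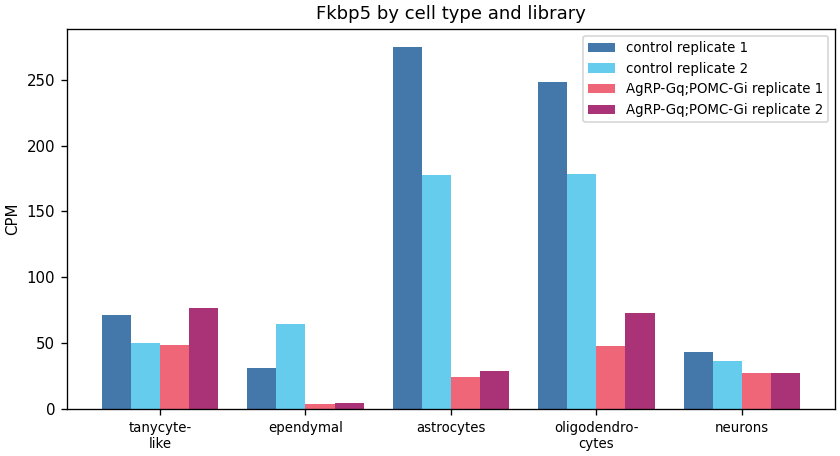
CPM of *Fkbp5* (y axis) in 5 cell types, 1 bar per library. In astrocytes both control bars (275 and 178 CPM) stand far above both AgRP-Gq;POMC-Gi bars (24.5 and 28.9 CPM), while the 4 bars of tanycyte-like nuclei lie between 48.6 and 76.7 CPM and overlap.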

How the data were processed

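The deposited files hold whole-number UMI counts of 32285 genes for 4 single-nucleus libraries, which the authors made with Cell Ranger 7.0.0 on GRCm38/mm10, and a table of nuclei in which the authors give UMI and gene counts, the percent of UMIs from mitochondrial genes, their quality filter, clusters and cell types. Seurat 4.3.0 is named in the submitters' processing notes. Doublets were treated by the authors and no caller was run here. The combined matrix and the authors' immediate early gene score were not used.

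Counts of kept nuclei, at least 800 UMIs and 500 genes each, were summed per library and type. Groups were compared with edgeR 4.0.16 (quasi-likelihood test, TMM; R 4.3.3, limma 3.58.1) over genes found in 5% or more of the nuclei tested. Benjamini-Hochberg adjusted p-values were read at 0.05. The SE of an edgeR log2 difference was taken as its size divided by the square root of the F statistic. DESeq2 1.42.0 was an alternative, as were other filters, library sizes without TMM, a replicate block and leaving out each library. Shares were compared by exact permutation with scipy 1.17.1 (Python 3.11.15, numpy 2.4.6, pandas 2.3.3, matplotlib 3.10.9). The edgeR comparison of the groups was tested on simulated counts for tanycyte-like nuclei and for each cluster. The comparison with astrocytes, the replicate block and DESeq2 had no such test.

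Leading genes had a UMI in at least 20% of tanycyte-like nuclei (for the genes of a cluster, of the nuclei of that cluster) and in every library, and the largest ratio of mean CPM + 1. The rule named 15 genes against every type, 10 against astrocytes and ependymal cells, 10 high with each of these over the other, 12 per cluster, and the 5 lowest p-values per direction. Fos, Fn1, list members and other genes given for a list were named as examples. Members and lists were chosen with earlier results of these data known. Positions are from GENCODE M21 (99.8% of genes matched) and promoters from RefSeq for GRCm38.p6. Some members of the lists are not reported here by name.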

Additional observations from a re-analysis of the deposited data

Results flagged for a closer look

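*Fkbp5* differed between the groups in astrocytes and not in the same way in tanycyte-like nuclei. The log2 difference of AgRP-Gq;POMC-Gi to control was 3.34 ± 0.50 (SE) higher in tanycyte-like nuclei than in astrocytes by an interaction term (edgeR adjusted p = 0.0274). The call was lost by DESeq2 (DESeq2 adjusted p = 0.241) and at a detection minimum of 10% (edgeR adjusted p = 0.0644). The control libraries of tanycyte-like nuclei held 7 and 4 UMIs of *Fkbp5*, so the value rests on few molecules.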

How the results depend on the processing

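Counts of genes called between the groups were unstable. In tanycyte-like nuclei the 0 calls became 6 without TMM factors, 48 with no filter on detection and 5 to 74 when 1 library was left out (74 without control replicate 1, 47 without control replicate 2, 5 without AgRP-Gq;POMC-Gi replicate 1 and 20 without replicate 2). In cluster 61 the 0 calls became 12 without TMM factors, 36 with no filter and 4 to 30 without 1 library. In cluster 141 the 5 calls became 0 without TMM factors, by DESeq2 and with filterByExpr, 1 with no filter or a detection minimum of 10%, and 0 to 59 without 1 library. The 1 call of the comparison with astrocytes became 3 without TMM factors, 0 by DESeq2 and at 10%, 14 with no filter, 18 with filterByExpr and 7 to 20 without 1 library. *Fkbp5* kept its direction there but lost the call by DESeq2 (3.27), at 10% (3.28) and when AgRP-Gq;POMC-Gi replicate 2 was left out (range over the libraries left out 3.14 to 3.45). Its own difference in tanycyte-like nuclei ranged from -0.017 (control replicate 2 left out) to 0.53 (control replicate 1 left out) and was -0.012 with AgRP-Gq;POMC-Gi replicate 2 left out. The ratio of the share of cluster 61 among tanycyte-like nuclei, 1.30, lay between 0.978 (without control replicate 1) and 1.96 (without control replicate 2), and that of cluster 141, 0.585, between 1.07 and 0.402 for the same libraries, and at 1.72 over all kept nuclei. *Vim* ranked 3 of 14 types after thinning and without control replicate 1. Members of the gene lists called went from 0 to between 0 and 11 without 1 library. The summed immediate early genes went from a ratio of 2.53 to 0.929 without AgRP-Gq;POMC-Gi replicate 1, an alternative chosen after seeing the data. The cause of these shifts was not tested. With a replicate block, the calls were 0 in tanycyte-like nuclei, 5 in cluster 61, 1 in cluster 141 and 17 in the comparison with astrocytes, *Fkbp5* among them. The correlation of same-numbered deviations was -0.03 in tanycyte-like nuclei and 0.24 in astrocytes. The numbers of choroid plexus nuclei also went with the replicate number. No label says that a number marks a shared batch or animal, and with 2 numbers the correlation cannot settle it, so the numbers were not taken as pairs, and the count in the comparison with astrocytes depends on that choice. With 26 tanycyte-like nuclei per control library, genes of a few UMIs cannot be compared at this depth.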
